A study of Sus scrofa with 3 samples.

Results

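Liver DNA methylation of Enshi black pig (ES), a Chinese indigenous breed, was compared with that of Large White pig (LW), a European breed, over every differentially methylated region and CG site that the authors listed for this pair on chromosomes 1 to 18 of the Sscrofa10.2 build. The lists held 7325 autosomal regions of 8881 for this pair and of 25044 for the 3 breed pairs of the series, and 26297 autosomal sites of 32384 for this pair and of 89093 for the 3 pairs. The 1556 regions left out lay on X (704), Y (4) and unplaced scaffolds (848), as did 6087 sites. Nothing else was removed, so weak and strong differences are all described.

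Both groups were livers of male pigs at postnatal day 90, untreated as far as the labels say, with 1 bisulfite-sequenced methylome per breed. The labels give 3 male pigs for the liver tissues, and the sources used here do not say whether these were pooled within a breed. A methylome of male Chinese wild boar (WB) of the same age, from the same series, enters below as values from its own comparisons, which share the ES and LW libraries. The level columns are numbered, and level 1 was read as ES and level 2 as LW from the order of the breed codes in the name of the table. The labels attach the table that compares ES with WB to the LW sample, whose code is not in its name, so every direction given here rests on that order. With 1 methylome per breed there was no spread between replicates, so the breeds were described and not tested. Every listed row had already been chosen by the authors for a difference.

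Cytosine methylation in mammals falls mostly on cytosines followed by guanine, the CG sites. Bodies of genes and sequence between genes are usually highly methylated, whereas CG-rich promoters, called CpG islands, are usually unmethylated. Bisulfite treatment converts cytosines without the mark so that they are read as thymine, and the level of a site is the share of reads that kept the cytosine. Liver holds several cell types, and a level of 50% can stand for a mark on 1 of the 2 parental copies or for a mixture of cells. Neither these nor the breeds' cell composition can be told apart in these lists, which also hold no marker that would check the tissue.

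ES had the lower level in somewhat more of the listed regions and sites. It was lower in 3986 regions and higher in 3339, so that 54.4% were lower (95% exact interval 53.3% to 55.6%). Among sites it was lower at 14650 and higher at 11647, or 55.7% (55.1% to 56.3%). These intervals cover counting error only and are too narrow, since neighbouring rows are not independent. Of the listed sites, 43.4% (11400) held the same pair of levels as the site before them, so the deposited levels are read here as smoothed over neighbouring sites. Read depth behind each level is unknown.

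In regions lower in ES, the median level was 49.8% in ES (quartiles 35.0% and 61.8%) and 89.9% in LW (77.5% and 95.8%). Where ES was higher, its median was 86.3% (73.1% and 94.1%) and that of LW 46.7% (33.4% and 58.6%). The difference of levels had a median of 33.6 percentage points in the first set and 32.7 in the second. Over all regions the median was 33.2 points, with 19.3 points at the 5th percentile and 64.8 at the 95th. Single sites differed more, with a median of 58.1 points. Their median levels were 27.6% in ES and 91.6% in LW where ES was lower, and 91.9% and 30.04% where it was higher.

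**Figure D1:**
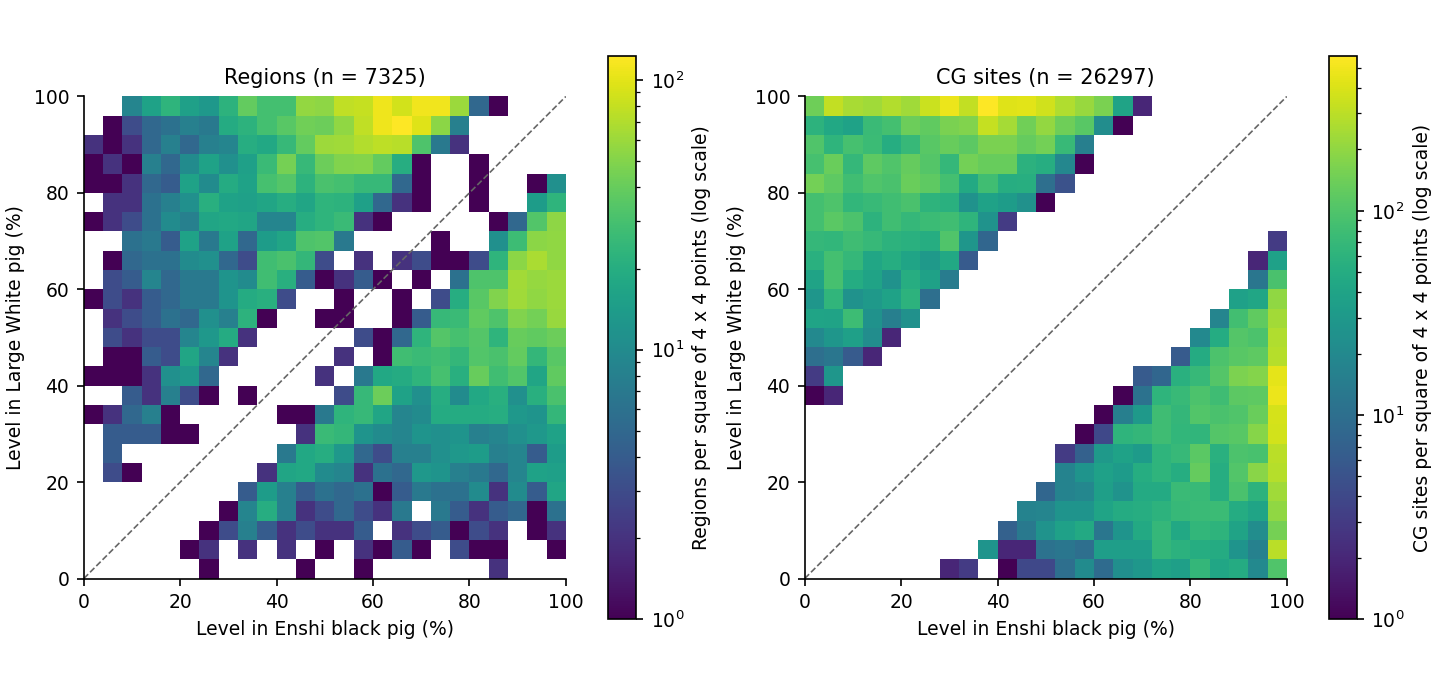
Methylation levels of the listed autosomal regions (left, n = 7325) and CG sites (right, n = 26297), with the level in ES on the x axis and that in LW on the y axis, both in percent. Colour gives the number of regions or sites per square of 4 by 4 percentage points on a log scale, and the dashed line marks equal levels. Regions are densest near the top right above the line, at a level of 60% to 80% in ES and over 90% in LW, and the sites leave an empty band around the line, as no site differs by less than 28.5 points.

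The breed with the higher level stood at 80% or more in 4994 regions (68.2%), at 90% or more in 3307 (45.1%) and at 95% or more in 1950 (26.6%). The other breed stood below 20% in 602 regions (8.22%) and below 10% in 116 (1.58%). The most frequent pairing, with 2136 regions (29.2%), was a level of 40% to 60% in one breed and 80% to 100% in the other. A pairing of 60% to 80% with 80% to 100% followed, with 1873 regions (25.6%). Regions that switched from below 20% to at least 80% numbered 185 (2.53%), of which 111 were low in ES and 74 in LW. With limits of 10% and 90% only 7 regions remained, 5 of them low in ES. Among sites the 20% and 80% switch was more frequent, at 4972 sites (18.9%), with 2958 low in ES and 2014 in LW.

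By the level of the higher breed, the excess of regions lower in ES was largest where that breed was nearly fully methylated. With that breed at 95% or more, LW was the higher one in 1199 regions and ES in 751, so that 61.5% were lower in ES (59.3% to 63.7%). At a higher level between 60% and 80%, the share was 50.3% of 1575 regions (47.8% to 52.9%). Within these, it was 60.4% (52.3% to 68.0%) of the 159 regions whose lower level was below 20%. At lower levels of 20% to 40%, 40% to 60% and 60% to 80%, it was 51.1% of 642, 47.8% of 749 and 44% of 25. Where neither breed passed 60%, the order was the opposite. With the higher level between 40% and 60%, 274 of 626 regions were lower in ES, or 43.8% (39.8% to 47.8%). By the level of the lower breed the share did not change steadily. It was 54.0% (49.9% to 58.0%) in the 602 regions whose lower level was below 20% and 52.4% (50.6% to 54.3%) in the 2905 regions at 40% to 60%. The share was 61.2% (59.0% to 63.4%) in the 1898 regions whose lower level was 60% to 80% and 50.95% (48.7% to 53.2%) in the 1900 regions whose lower level was 20% to 40%. In 20 regions both breeds were at 80% or more, and 8 of these were lower in ES. In the pairing of 60% to 80% with 80% to 100%, 1151 regions were lower and 722 higher in ES.

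Sites did not follow regions in this. Their share lower in ES was 54.2% at a higher level of 95% or more (10688 sites) and 62.1% at a higher level of 40% to 60% (1040 sites). It was highest where the lower breed was nearly unmethylated, at 64.5% (63.0% to 65.9%) of the 4449 sites with a level below 10% in one breed.

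The lists of regions and sites covered different parts of the data. Only 2725 regions contained a listed site, and 4600 (62.8%) contained none. The regions with a listed site differed by a median of 47.9 points and those without by 27.2 points. Regions contained 15168 of the listed sites (57.7%), and 11129 sites lay outside every region. The outside sites were the more extreme. Their lower breed had a median level of 21.9% and their higher breed 93.7%, a median difference of 65.5 points, against 52.2 points for sites within regions. ES was the lower breed at 57.6% of the outside sites (56.7% to 58.5%) and at 54.3% of those within regions (53.5% to 55.1%). In 518 regions every CG site was listed.

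A region's level is a mean over its sites and can hide opposite differences. In 19 regions of 360 to 2677 bp (median 998 bp), listed sites pointed both ways. The difference was below 10 points in 34 regions, whose median length was 834 bp, and 4 of these held sites of both directions. The smallest was at chr3:103374487-103375367, with 7 CG sites and levels of 60.7% in ES and 61.0% in LW. Both of its listed sites were higher in ES, although the region as a whole was 0.252 points lower.

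The listed regions had a median length of 177 bp (95% interval of the median 173 to 182 bp), with quartiles of 100 and 284 bp and a range of 51 to 7825 bp. They held a median of 8 CG sites, with quartiles of 5 and 14 and a range of 4 to 136. Together they spanned 1833015 bp and 87474 CG sites. The CG density, counted as CG sites per 100 bp of region, had a median of 5.48 (5.38 to 5.60), with quartiles of 3.31 and 8.22 and extremes of 0.0820 and 29.2. Regions lower in ES had a median length of 183 bp and a median density of 5.26 (5.13 to 5.43), and those higher in ES 171 bp and 5.70 (5.56 to 5.86). The autosomal regions of the other breed pairs were of similar size, with a median of 177 bp between ES and WB (7829 regions) and 164 bp between LW and WB (5434 regions). Their median densities were 5.71 and 6.17.

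Among the listed regions, CG density went with the size of the difference and with the level, and less regularly with the direction. The regions were ranked by density and split into 10 classes of 719 to 746 regions. From the sparsest to the densest class, the median difference fell from 45.1 to 21.9 points. The median length fell from 410 to 118 bp, while the median number of CG sites rose from 5 to 18. Density is the number of CG sites over the length, so these trends in length and number are partly built into the ranking. The share of regions without any listed site rose from 36.3% to 89.5%. Regions were chosen for a difference by a rule not known here, and no listed site differs by less than 28.5 points. The part of this choice in the trends of difference and of listed sites was not tested. In the 5 sparser classes, 56.3% to 57.1% of regions were lower in ES. The share was 373 of 746 regions (46.4% to 53.6%) in the ninth class and 47.6% (43.9% to 51.3%) in the densest, so that neither direction prevailed there. Among regions of at least 10 CG sites, the densest class had 52.9% (47.0% to 58.7%), on the other side of 50%. With fixed limits the direction did not follow density at either extreme. The share lower in ES was 51.6% (45.2% to 58.0%) in the 246 regions below 1 CG site per 100 bp and 52% (45.9% to 58.0%) in the 275 regions at 15 or more.

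Among the 10 classes, the median levels of the breeds were closest in the densest one. With fixed limits they were also close below 1 CG site per 100 bp, at 63.6% in ES and 62.3% in LW. The median difference within those sparse regions was 41.2 points, so close medians do not mean similar levels in each region. In the fourth class, at a median of 4.13 CG sites per 100 bp, the median level was 62.4% in ES and 76.3% in LW. The densest class had 58.8% and 58.1%. The higher breed, whichever it was, had medians of 85.8% to 91.2% in the other 9 classes and 69.3% in the densest one. At 15 or more CG sites per 100 bp, the densest of the fixed classes, 275 regions had medians of 52.9% in ES and 56.1% in LW. Even there the lower breed had a median of 43.1%, so that the bulk of these regions was partly methylated in both breeds. Regions were listed for a difference, so these levels do not describe CG-dense sequence at large. The 293 regions of 40 or more CG sites had medians of 54.4% and 53.6%, and 47.4% of them were lower in ES (41.6% to 53.3%).

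**Figure D2:**
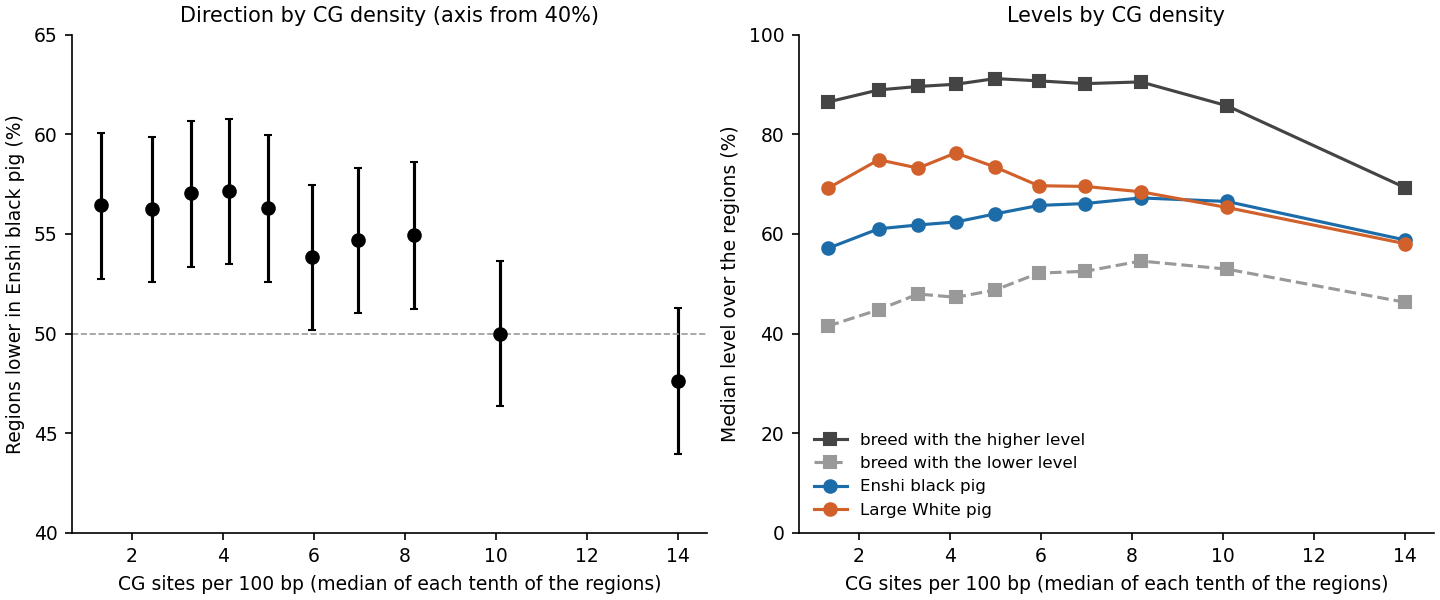
Direction and level of the 7325 regions in 10 classes of CG density, each placed at its median number of CG sites per 100 bp on the x axis. On the left, points are the percentage of regions lower in ES with 95% exact intervals that cover counting error only, on an axis starting at 40%; on the right, points are median levels in percent in each breed and in the breed with the higher or lower level of each region. The share lower in ES is 56.3% to 57.1% in the 5 sparser classes and 47.6% in the densest, where the medians of the breeds meet near 58%.

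The regions richest in CG sites were found in both directions. Listed sites within a region, here and in the regions below, are not separate observations. Their levels are read as smoothed, and no listed site differs by less than 28.5 points. Agreement among them therefore describes the list and adds no support for a region. At chr4:141842619-141844687, 136 CG sites over 2069 bp had a level of 38.7% in ES and 72.3% in LW. All 52 of its listed sites were lower in ES, with levels of 7.48% to 49.6% against 53.4% to 85.04%. Where regions of the other pairs overlapped it, ES stood at 16.5% and WB at 56.4% over 42 CG sites, and LW at 79.8% and WB at 48.0% over 55 other CG sites. These pieces do not overlap each other. Listed sites in the first had 53.4% to 56.2% in LW, close to WB, and the 2 listed sites in the second had 49.3% to 49.6% in ES, also close to WB.

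At chr12:42239249-42240425, 99 CG sites had 24.6% in ES and 76.8% in LW. Its 64 listed sites ran from 9.42% to 42.9% in ES and from 63.1% to 99.4% in LW, without overlap. WB had 77.8% in the part compared with ES and 52.0% in the part compared with LW. The other regions of this kind lower in ES differed less. At chr18:52660993-52661638, 103 CG sites had 40.4% and 60.5%, with 1 listed site and 65.6% in WB. At chr1:310485322-310486169, 95 CG sites had 72.0% and 95.6% with no listed site, and WB had 76.5% against 96.0% in LW over 39 of them.

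In the opposite direction, chr17:66352598-66353317 held 109 CG sites at 38.7% in ES and 10.3% in LW. It was the only one of the 8 regions of either direction with most CG sites in which a breed had a level below 20%. Its 24 listed sites had 46.3% to 67.3% in ES and 13.4% to 27.7% in LW, and 49 CG sites listed for the pair with WB had 50.3% in ES and 18.3% in WB. At chr12:63391889-63392711, 95 CG sites had 84.3% and 47.5%, with 84 listed sites all higher in ES. WB had 56.0% against 84.3% in ES over 92 CG sites there. The other regions rich in CG sites held no listed site. At chr4:83434183-83434960, 106 CG sites had 76.9% and 51.9%, and at chr1:28641615-28642270, 98 CG sites had 60.2% and 38.5%.

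Among regions of at least 10 CG sites, the largest differences approached a complete switch. At chr10:36631227-36631413, all 10 CG sites were listed, each at 9.16% in ES and 97.4% in LW. WB had 81.7% against 9.07% in ES over the same bases. ES was also low at chr2:7302733-7303046 (15 CG sites, 10.9% and 96.0%), at chr11:83344547-83344773 (13 CG sites, 15.7% and 96.3%) and at chr1:142820096-142820381 (15 CG sites, 4.71% and 84.6%). In the lists that compare ES with WB, WB had 56.8%, 95.2% and 98.1% at these regions. Each of the 4 regions was therefore listed with ES as the lower breed against both others.

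LW was the low breed at chr7:31348142-31348349, where 20 CG sites had 99.5% in ES and 16.9% in LW. Against LW at 16.4%, WB had 96.7% over the same 20 sites. A similar set of levels was found at chr14:95324152-95324407, where 13 CG sites had 97.9% in ES, 18.2% in LW and 99.6% in WB. At chr1:59357214-59357371, 10 CG sites had 98.5% and 20.6%, and WB, at 18.6%, was low as well. At chr11:87385813-87386033, 11 CG sites had 98.5% and 19.7%, and no region of the other pairs overlapped it.

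**Figure D3:**
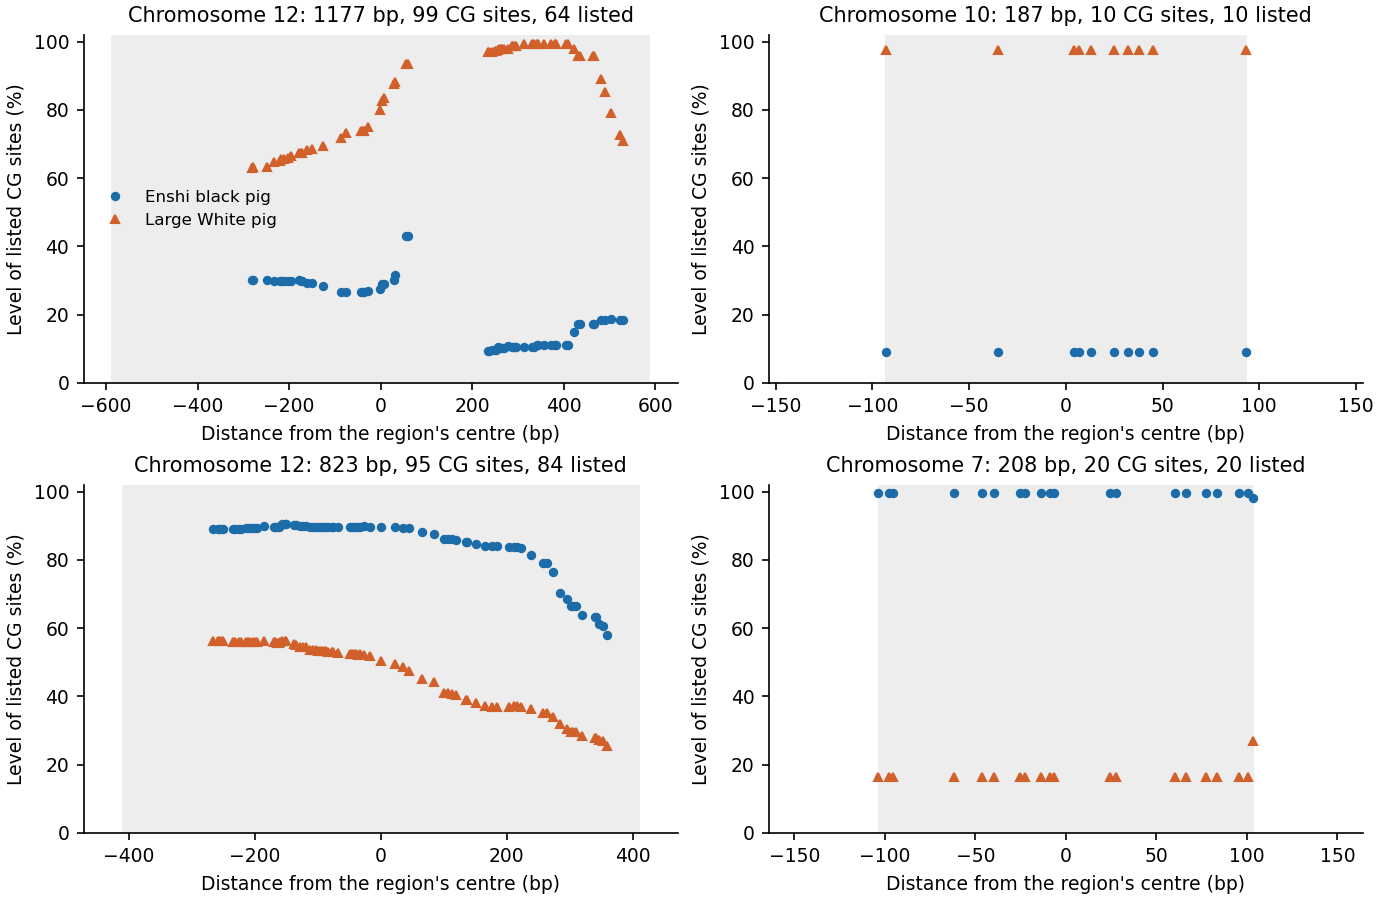
Levels of the listed CG sites in 4 regions, with the distance from the region's centre in bp on the x axis and the level in percent on the y axis; circles are ES, triangles LW and grey the extent of the region. The upper panels are regions lower in ES, on chromosome 12 (99 CG sites, 64 listed) and chromosome 10 (10 CG sites, all listed), and the lower panels regions higher in ES, on chromosome 12 (95 CG sites, 84 listed) and chromosome 7 (20 CG sites, all listed). In the long regions the level of the listed sites drifts along the sequence in both breeds. CG sites that are not listed are not drawn, and no listed site differs by less than 28.5 points. The panels therefore cannot show whether the breeds meet within a region. In the short regions the level is the same at nearly all sites, with the last site of the chromosome 7 region at 26.9% in LW and the others near 16.4%.

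The longest regions held few CG sites for their length. At chr9:2785698-2793522, 11 CG sites over 7825 bp had 91.1% in ES and 59.0% in LW, with no listed site. Over 4 CG sites in it, listed for the pair of LW and WB, LW had 17.2% and WB 96.2%. At chr2:63024390-63029665, 17 CG sites over 5276 bp had 29.4% and 69.6%, and its 2 listed sites had 9.65% and 66.6%. At chr7:970350-974883, 28 CG sites over 4534 bp had 54.2% and 89.0%, and its 4 listed sites 45.2% to 51.4% and 88.6% to 89.3%. At chr1:96420885-96425760, 4 CG sites over 4876 bp had 73.1% and 71.2%, a difference of 1.88 points. The 158 regions of at least 1 kb had a median density of 0.425 CG sites per 100 bp, and 53.2% were lower in ES (45.1% to 61.1%).

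Listed regions lay unevenly along the chromosomes. How many CG sites could have been listed in each stretch is unknown. Counts here, and those per Mb and per bin below, are therefore not shares of the sequence examined. The values that random placement would give were not computed. The median gap between neighbouring regions was 168896 bp, but 1436 regions (19.6%) had another within 10 kb and 4222 (57.6%) within 100 kb. Sites were packed more tightly, with a median gap of 54 bp and another listed site within 100 bp for 72.8% of them.

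Neighbours shared their direction over short distances. Of 105 pairs of neighbouring regions less than 100 bp apart, 103 had the same direction (98.1%), as had 70 of 76 pairs at 100 to 200 bp (92.1%). At 200 to 500 bp the share was 40 of 65 (61.5%, 48.6% to 73.4%), and at 500 bp to 1 kb it was 33 of 64 (51.6%, 38.7% to 64.3%). For pairs drawn without regard to position, the direction counts give 50.4%. Between 1 and 10 kb, 293 of 482 pairs shared direction (60.8%, 56.3% to 65.2%), more often than the pairs at 500 bp to 1 kb, although the intervals overlap. Beyond 10 kb the share was 53.4% (52.2% to 54.7%). Nearby rows often repeat the same levels, as given above for sites, and the part of smoothing in these shares was not tested.

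Sites showed the same decline with gap. All 14663 pairs of neighbouring sites less than 100 bp apart and all 745 at 100 to 200 bp had the same direction. The share was 93.6% at 200 to 500 bp, 70.6% at 500 bp to 1 kb and 74.2% at 1 to 2 kb. It was 62.0% at 5 to 10 kb and 59.2% (56.5% to 61.8%) at 20 to 50 kb, against 50.7% for pairs drawn without regard to position.

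**Figure D4:**
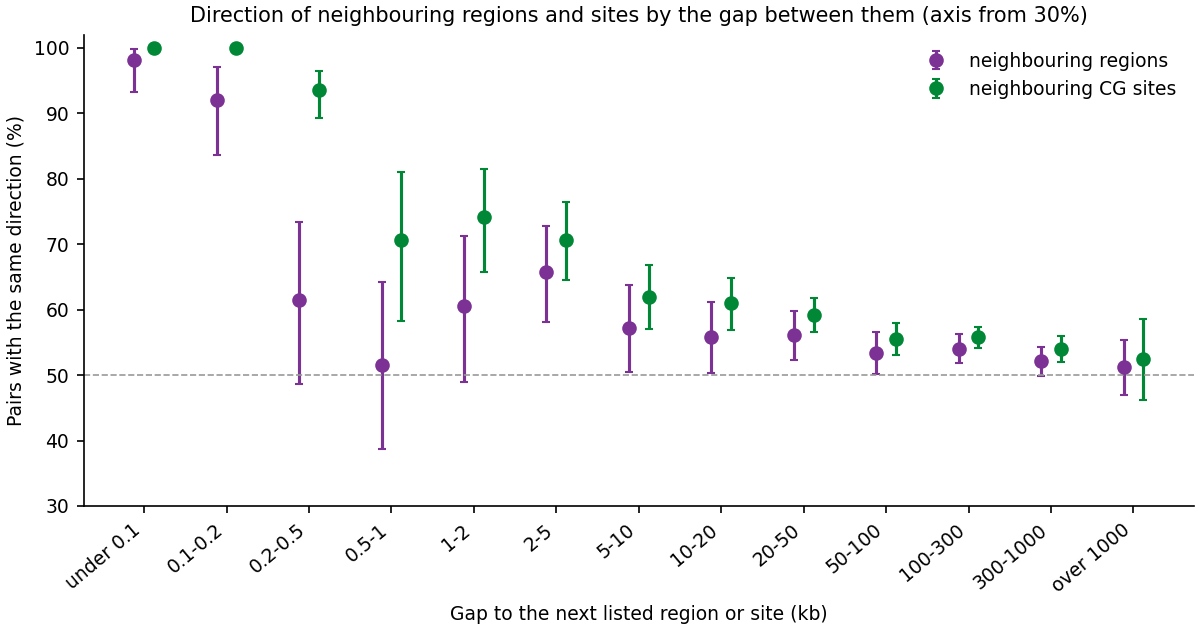
Percentage of pairs of neighbouring regions (purple) and of neighbouring CG sites (green) in which both are lower or both are higher in ES (y axis, starting at 30%), by the gap between them in kb (x axis, 13 classes). Bars are 95% exact intervals that cover counting error only, and the dashed line marks 50%. Nearly all pairs within 0.2 kb share their direction, regions fall to 51.6% at 0.5 to 1 kb, and sites stay above regions in every class.

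Joined wherever the gap was at most 200 bp, the 26297 sites formed 10889 runs. A single site made up 6291 of these runs (23.9% of sites), and these single sites were lower in ES at 58.1%. The 397 runs of at least 10 sites held 7445 sites (28.3%), of which 52.7% were lower in ES. All 4598 runs of at least 2 sites kept to one direction, which only restates the count of neighbouring sites within 200 bp given above. The longest run, at chr6:43999544-44000145, held 93 sites with mean levels of 37.2% in ES and 83.1% in LW. Next came 84 sites at chr12:63392033-63392659 (84.9% and 47.1%), within the region of 95 CG sites described above, and 71 sites at chr4:72478575-72479025 (48.6% and 97.6%). A run of 62 sites at chr3:521982-522371 had 75.3% in ES and 20.3% in LW.

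The tightest gatherings of regions did not all share a direction. The 10 regions at chr5:19655445-19737246 were 5 lower and 5 higher in ES, the most regions in any stretch of at most 100 kb. Opposite directions lay close together in it. At chr5:19687963-19688154 the levels were 96.0% in ES and 47.0% in LW, and at chr5:19689704-19689923 they were 59.4% and 97.9%. At chr2:100104806-100150273, 7 of 9 regions were lower in ES. The first 6 of these formed a block with 31.8% to 51.8% in ES and 60.9% to 75.01% in LW, while the last 2 regions had 99.0% and 96.7% in ES against 81.1% and 79.5%. At chr2:1381908-1427594, 6 of 8 regions were lower in ES, with 41.6% against 83.7% at chr2:1405117-1405212.

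The longest series of one direction spanned 1.42 to 6.28 Mb. They are the extremes among 7325 ordered regions, of which 54.4% were lower in ES. The lengths that this share alone would give were not computed, so the series do not show that direction is shared over Mb. The longest held 15 regions in a row lower in ES on chromosome 6, from 37042530 to 42150830, with median levels of 66.9% and 92.5%. Series of 14 lay on chromosome 15 from 22973483 to 26850328 (46.6% and 90.9%) and on chromosome 2 from 28953568 to 30454471 (49.9% and 90.0%). The longest series higher in ES held 12 regions each, on chromosomes 9, 2 and 4. On chromosome 9, from 8487061 to 10616871, the median levels were 84.6% and 52.1%. On chromosome 2, from 56067829 to 62352789, they were 81.0% and 40.2%, and on chromosome 4, from 134662177 to 136081770, 87.0% and 55.2%.

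Chromosomes differed more in the number of regions than in their direction. With the last listed position standing in for length, chromosome 12 held 5.17 regions per Mb, chromosome 10 held 4.55 and chromosome 18 held 4.07, against 2.99 over all autosomes. Chromosome 13 was the lowest, at 1.52. More than 50% of regions were lower in ES on all 18 chromosomes, from 50.2% of 333 on chromosome 13 (44.7% to 55.7%) to 61.8% of 249 on chromosome 18 (55.5% to 67.9%) and 59.8% of 328 on chromosome 12 (54.2% to 65.1%). By sites, 15 chromosomes were above 50%, up to 68.1% on chromosome 12 and 66.7% on chromosome 18. Chromosomes 3, 10 and 14 were below, at 47.4%, 45.1% and 45.8%, although 51.3%, 56.7% and 53.5% of their regions were lower in ES.

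Regions were denser towards chromosome ends, where the excess in direction was absent. Within 2 Mb of either end there were 405 regions, or 5.63 per Mb, with 49.4% lower in ES and a median of 6.57 CG sites per 100 bp. More than 20 Mb from an end there were 4014 regions, or 2.32 per Mb, with 55.8% lower and a median density of 5.26. Distances of 5 to 10 Mb lay between, at 4.61 regions per Mb and 51.6% lower. CG density thus moved with distance from the end, and its part in the direction was not tested. Pig chromosomes 1 to 12 have 2 arms and chromosomes 13 to 18 have a centromere near one end. On chromosomes 13 to 18 the first 10 Mb held 220 regions in all and the last 10 Mb 300, whereas on chromosomes 1 to 12 they held 748 and 574.

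Numbers of regions varied widely between bins of 10 Mb. The 235 full bins held 2 to 85 regions, with a median of 25 and a mean of 29.1, and the variance was 9.33 times the mean. The fullest bins were the first 10 Mb of chromosomes 2 (85 regions), 3 (83) and 5 (79). The emptiest were chromosome 13 from 160 to 170 Mb (2 regions) and, tied at 6 regions, chromosome 13 from 40 to 50 Mb and from 100 to 110 Mb and chromosome 9 from 80 to 90 Mb. In the first 10 Mb of chromosome 3, 43.4% of regions (32.5% to 54.7%) and 24.4% of 311 sites were lower in ES. The run of 62 sites at chr3:521982-522371 supplied part of these sites, all higher in ES. Chromosome 7 from 20 to 30 Mb, the interval that carries the swine leukocyte antigen genes, held 71 regions, of which 53.5% were lower in ES (41.3% to 65.4%). It also held 324 sites, of which 46.0% were lower.

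Direction by bin was spread around a centre above 50%. In the 175 bins of at least 20 regions, the share lower in ES ran from 20% to 82.1%, with quartiles of 48.2% and 62.5% and a median of 55.6%. The share was above 50% in 117 bins, below in 50 and at 50% in 8. Its standard deviation over bins was 11.3 percentage points, against a binomial standard deviation of 8.89 at these counts. The 95% exact interval lay above 50% in 16 bins and below it in 4. Among 175 bins some intervals leave 50% by counting error alone, and these intervals are too narrow, as said above. Over all regions the share was 54.4%, and the numbers of bins that this would give were not computed. The shares of adjacent bins had a Pearson correlation of 0.107 over 127 pairs that share bins, which does not show that adjacent bins are alike.

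In 15 bins at least 70% of regions were lower in ES, and in 4 bins at least 70% were higher. The most one-sided bins lay side by side on chromosome 15. There 23 of 28 regions (82.1%, 63.1% to 93.9%) from 20 to 30 Mb and 18 of 22 (81.8%) from 10 to 20 Mb were lower in ES, with median levels of 59.8% against 90.2% in the first and 65.7% against 94.0% in the second. Chromosome 5 from 50 to 60 Mb had 16 of 20 (80%) and chromosome 4 from 60 to 70 Mb had 17 of 22 (77.3%). Sites in these 4 bins pointed the same way, with 66.3% to 82.9% lower in ES. The bins were picked as extremes among 175 and held 20 to 28 regions each. Many listed sites lie within listed regions, so the sites are not separate support.

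The bins with most regions higher in ES were less alike in the site list. Chromosome 7 from 30 to 40 Mb had 26 of 33 regions higher, with median levels of 70.7% in ES and 50.1% in LW, and 51 of its 61 sites were higher too, since 16.4% were lower. The region at 31348142 with 99.5% and 16.9%, described above, lies in this bin. In the other 3 bins regions and sites parted. On chromosome 2 from 50 to 60 Mb, 4 of 20 regions (20%) but 54.9% of 51 sites were lower in ES. On chromosome 3 from 110 to 120 Mb the shares were 26.7% of 30 regions and 52.1% of 96 sites, and on chromosome 7 from 50 to 60 Mb 26.7% of 30 regions and 52.4% of 84 sites. Of the 15 bins lower in ES, 13 had more than 50% of their sites lower as well. Over the 175 bins, the shares by region and by site correlated with a Pearson coefficient of 0.416, and 51 bins had them on opposite sides of 50%. Both lists come from the same libraries and share 57.7% of the sites, so that this is a description of the lists.

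**Figure D5:**
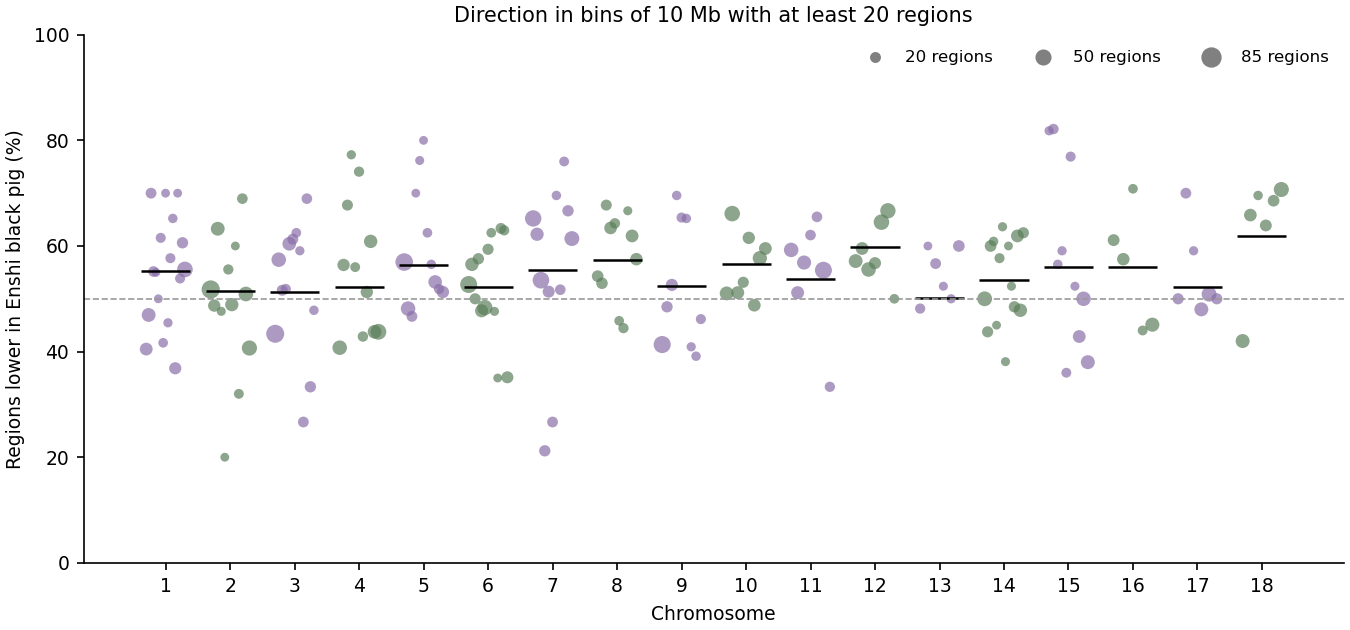
Percentage of regions lower in ES (y axis) in the 175 bins of 10 Mb with at least 20 regions, in order of position within each chromosome (x axis; colours alternate between chromosomes). The area of a point grows with its number of regions, black lines are the share over the whole chromosome and the dashed line marks 50%. Every chromosome line lies above 50%, from 50.2% to 61.8%, while single bins run from 20% to 82.1%.

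Gene models of the same build were at hand only for 216 loci of chromosome 1, of which 53 had a symbol, and for ACTA1. Among the 53 genes, 5 held a region in their body or within 2 kb upstream, 9 regions in all. All 5 lie on the minus strand, and the strands of the other genes were not counted. Regions within the transcribed locus were mostly intronic and went both ways. A region was called intronic when it touched no exon of the models, and the share of intron in these loci was not counted.

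GABRA5 (ENSSSCG00000004827, chr1:156791347-156874196), which encodes a subunit of the GABA-A receptor, held an intronic region of 12 CG sites at chr1:156873303-156873384. Its level was 52.3% in ES and 70.5% in LW, and WB had 71.6% against 53.2% in ES. Both other breeds were higher than ES by similar amounts. Within PPP1R14C (ENSSSCG00000004094), a gene for a protein phosphatase inhibitor, the regions of the intron and the upstream part had opposite directions. The intronic region at chr1:18073214-18073467 had 97.6% in ES and 60.8% in LW over 5 CG sites, and the upstream region at chr1:18079421-18079713 had 41.1% and 63.0% over 34 CG sites. Over a longer region that holds the upstream one, WB had 36.3% against 62.3% in LW.

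The locus of SRP14 (ENSSSCG00000004785), which encodes a subunit of the signal recognition particle, held intronic regions at chr1:146282531-146282929 (20 CG sites, 75.6% and 44.5%) and chr1:146334659-146335298 (79 CG sites, 73.3% and 51.2%). This locus, chr1:146252439-146470242, carries 2 gene identifiers, and the regions may belong to the other gene. WB had 52.0% against 72.6% in ES at the second region. TAB2 (ENSSSCG00000004110), an adaptor of TAK1 kinase signalling, had 3 regions near its start, between 18929757 and 18930812. All were higher in ES than in LW, with 54.9%, 62.9% and 59.8% against 32.2%, 37.6% and 32.8%. WB was higher than both over longer regions that hold the first 2 of these. It had 95.2% against 61.7% in ES, and 90.9% against 43.5% in LW. Within the third, WB had 37.2% against 57.5% in ES. The largest difference at a named gene was in an exon of TTC23 (ENSSSCG00000004813), a tetratricopeptide repeat protein, at chr1:154169469-154169538, with 12.6% and 97.5% over 4 CG sites. ACTA1, the actin of skeletal muscle, overlapped a region of 33 CG sites at chr14:65237812-65238135 with 42.5% and 65.5%. Of 13 other loci on the list of primers, 0 overlapped an autosomal region. The locus on X could not overlap, since regions of X were left out. The remaining regions were not assigned to genes here.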

How the data were processed

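Liver bisulfite sequencing of 3 pig breeds was used, 1 library for each. Bismark 0.15.0 and the Sscrofa10.2 build are named in the submitters' processing notes. The authors deposited, for each differentially methylated CG site and region, a methylation level per breed as a fraction. Neither the caller nor any smoothing or threshold was stated: not given in the sources used here. Deposited differences, statistics, p-values and false discovery rates are the authors' own comparison and were not used.

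Fractions were turned into percent, and the difference was recomputed as Enshi black pig minus Large White pig. Rows on chromosomes 1 to 18 were kept without a filter. Coordinates are 1-based. Depth is unknown, as no read counts were used. Shares carry 95% exact (Clopper-Pearson) intervals and medians intervals from binomial order statistics, both for counting error only. Python 3.11.15, numpy 2.4.6, pandas 2.3.3, scipy 1.17.1 and matplotlib 3.10.9 were used, and the steps were tested on simulated data. A genome of this build was not used. For gene models, the first parts of the study's supplementary tables served.

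Regions named were, in each direction, the 4 with most CG sites, the 4 with the largest difference among those of at least 10 CG sites and the 2 longest, then the 3 stretches of at most 100 kb with most regions, the 4 most one-sided bins of 10 Mb in each direction and the 3 fullest and emptiest bins. Runs of sites, series of one direction and the 4 plotted regions were chosen after their values were seen. Members, lists and rules were all chosen with earlier results of these data known. Genes named were those with a symbol, among the models used, with a region in the body or 2 kb upstream, and ACTA1.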

Additional observations from a re-analysis of the deposited data

How the results depend on the processing

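No paired analysis was possible because 1 methylome stands for each breed and no test was made. Of 38 values recomputed for 13 results, 9 moved by less than their interval or limit and 29 moved further. Some alternatives use another limit, distance, bin width or unit counted, so that they measure a different quantity and a move is built in. For the other alternatives the cause of a move was not tested. The share of regions lower in Enshi black pig was 52.6% weighted by CG sites, 56.0% at differences of at least 40 points and 55.7% by sites, and that of sites 57.2% with 1 site per 100 bp and 57.6% outside regions. A higher breed at 80% or more became 45.1% at a limit of 90%, 76.6% by sites and 59.5% with at least 10 CG sites, and a lower breed below 20% became 1.58% at a limit of 10%, 33.1% by sites and 6.81% with at least 10 CG sites. The median difference was 58.1 points by sites and 28.3 with at least 10 CG sites. Median length was 252 bp with at least 10 CG sites and 192 bp at 40 points, and median density 7.52 with at least 10 CG sites and 4.65 when 1 CG site was taken off each count. The densest class passed 50%, from 47.6% lower to 52.9% with at least 10 CG sites, and both intervals held 50%. Another region lay within 5 kb for 14.4%, within 20 kb for 26.8%, and within 10 kb for 10.9% of regions of at least 10 CG sites. Pairs of one direction were 86.6% under 500 bp, 60.8% at 1 to 10 kb and 73.9% under 1 kb with at least 10 CG sites, against 79.4% under 1 kb. The variance was 6.07 times the mean in 5 Mb bins and 14.7 times in 20 Mb bins. Bins at least 70% lower in Enshi black pig numbered 51 of 250 by sites and 9 of 128 in 5 Mb bins, and bins at least 70% higher 15 by sites. Unknown depth limits every level, and the absence of replicates leaves no measure of variation between animals.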
